A study of Mus musculus with 12 samples.

Results

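Of the 60072 accessible regions listed in mouse myeloid progenitors, 600 were open in wild-type progenitors and lost most of their signal within 96 h of differentiation, down to a level that HMGN1-OE cells did not exceed by much. These progenitor peaks were chosen from the measured values. Each library was divided by its median over all peaks, so that a level of 1 median is that of a typical peak, and the 3 libraries of a group were averaged. A member had at least 2 medians in wild-type cells at 0 h, at least 4 times its wild-type level at 96 h, and an HMGN1-OE level at 96 h of at most 1.5 times the wild-type level. The first 2 conditions alone held for 1405 peaks, and the 805 of them above the HMGN1-OE limit are called the other closing peaks here. All 600 members passed the filter on low values, which left 57503 peaks of the series for testing. The HMGN1-OE libraries at 0 h are the only ones that had no part in the choice.

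In ATAC-seq a transposase inserts sequencing adapters where DNA is free of nucleosomes, so that read number in a region reports how accessible it is. Enhancers and promoters used by immature blood cells are open in progenitors, and many close as cells mature and the factors that keep them open are lost. HMGN1 is a small nucleosome-binding protein that competes with linker histone and loosens chromatin packing. The set therefore gives a view of regions that closed during the maturation of wild-type cells. For HMGN1-OE cells the choice set only an upper limit at 96 h.

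The cells were bone marrow progenitors of the C57BL/6 strain, selected for CD117 and immortalized by a retrovirus that carries HoxB8 fused to the estrogen receptor, so that estradiol keeps them immature in the presence of interleukin 3. HMGN1-OE cells came from mice with a transgene for human HMGN1, and wild-type cells from littermates without it. Cells of each genotype were collected 96 h after estradiol was withdrawn and at 0 h, which gave 4 groups of 3 libraries, each from 100000 cells. All groups, wild-type included, carried the ER-HoxB8 fusion. The submitters described the 3 replicates of a group as biologically independent, but the number of immortalized lines per genotype, the promoter of the transgene and the age of the mice were not found in the study's methods or labels. Genotype and line can therefore not be told apart.

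Library totals ranged from 21581528 to 35560463 reads, with 24.7% to 50% of reads in the listed peaks. The upper end of that range was wild-type 96 h replicate 1, which stood apart from the other libraries. Without it the same conditions chose 628 peaks, of which 513 were members. Leaving out wild-type 96 h replicate 2 or 3 kept fewer, 488 and 478 of the 600. Replicates correlated across tested peaks with Pearson r between 0.955 and 0.971. No 2 libraries of a group agreed within sampling noise. Values below are RPKM, the reads in a peak per kilobase of its width and normalized to library size, scaled between libraries by trimmed mean of M values (TMM) on the reads recovered from the table. Fold changes from the fit are on the log2(scaled RPKM + 1) scale, which understates changes of low peaks, and calls were made by limma over all tested peaks, where the adjusted p was under 0.05.

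After TMM scaling the members had similar median levels in both genotypes at each time. With RPKM as deposited, their median log2 difference between the genotypes was 0.27 at 0 h and -0.27 at 96 h. TMM takes out a shift shared by most peaks, and the paper reports a global gain of accessibility in HMGN1-OE progenitors. The scaled values therefore do not address such a shift. Median scaled RPKM over the 600 peaks was 2.34, 2.34 and 2.38 in the HMGN1-OE libraries at 96 h, against 11.8, 11.5 and 11.6 at 0 h. In wild-type libraries it was 2.15, 2.29 and 2.23 at 96 h, against 11.1, 11.5 and 10.9 at 0 h. The wild-type values and the HMGN1-OE values at 96 h are those that chose the peaks. The HMGN1-OE values at 0 h are not, and their medians were close to the wild-type ones. Their lower tail was longer. The 5th percentile of members was 2.98 to 3.31 scaled RPKM in HMGN1-OE libraries at 0 h, against 6.12 to 6.75 in wild-type libraries at 0 h, where the choice set a floor.

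**Figure D1:**
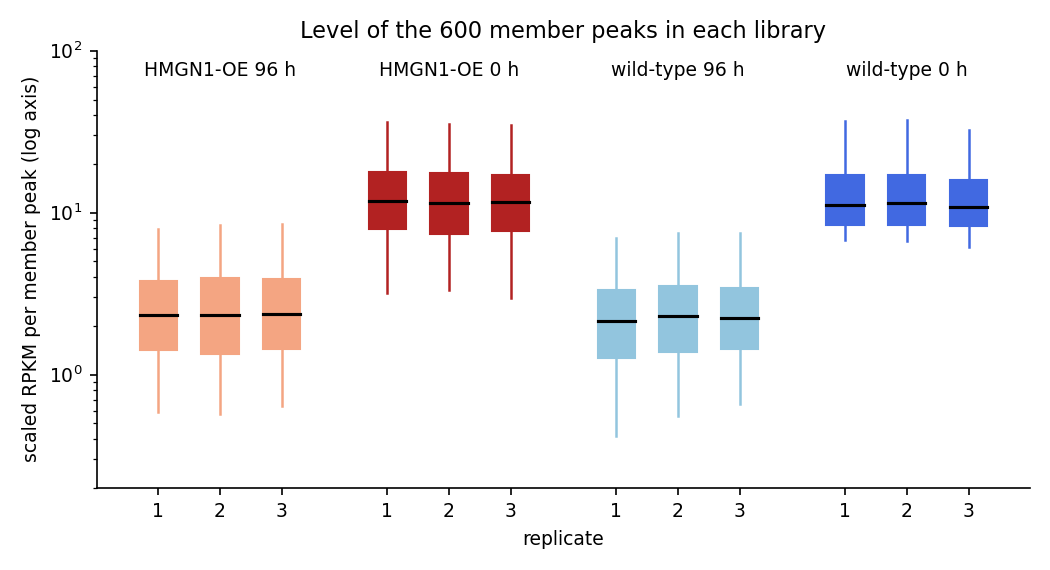
Scaled RPKM (log axis) of the 600 member peaks in each of the 12 libraries. Black lines are medians, boxes span the 25th to 75th percentile of the members and whiskers the 5th to 95th percentile. The medians lie between 2.15 and 2.38 in the 6 libraries at 96 h and between 10.9 and 11.8 in the 6 libraries at 0 h.

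As a share of all reads in peaks, the members took 0.330% ± 0.008 in HMGN1-OE libraries at 96 h and 1.537% ± 0.023 at 0 h (SD, n = 3 each). In wild-type libraries they took 0.302% ± 0.002 at 96 h and 1.384% ± 0.018 at 0 h (SD, n = 3 each). At 0 h the HMGN1-OE share ran from 1.511% to 1.553% and lay above every wild-type library, which ran from 1.368% to 1.404%. The ratio of the means was 1.11, and 1.23 when all reads of a library were taken as the base. At 96 h the ratio was 1.09 of the reads in peaks but 0.724 of all reads, so that the order of the genotypes at that time turned with the base. An exact two-sided permutation test over libraries gave p = 0.1 for each of 8 such comparisons, which is the smallest that 3 against 3 libraries allow (adjusted p = 0.1). Each of the 8 included a group that the choice used, so these are descriptions of the set.

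How far the peaks closed differed among them. At 96 h, 440 of the 600 (73.3%) were under 1 median in both genotypes, and 246 lay in the lowest 25% of all peaks in wild-type cells. By contrast, 25 members (4.17%) still had 2 medians or more in both genotypes. The median rank at 96 h was the 30.5th percentile of all peaks in HMGN1-OE cells and the 28.6th in wild-type cells. The 32 members with 10 medians or more in wild-type progenitors had a median of 2.65 medians in wild-type cells at 96 h, while the 246 members that started at 2 to 3 medians ended at 0.406. Both levels were used by the choice, whose minimum fold ties one to the other. Closure to below a typical peak thus held for most members and not for all, so the set is described here as closing rather than as fully closed.

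**Figure D2:**
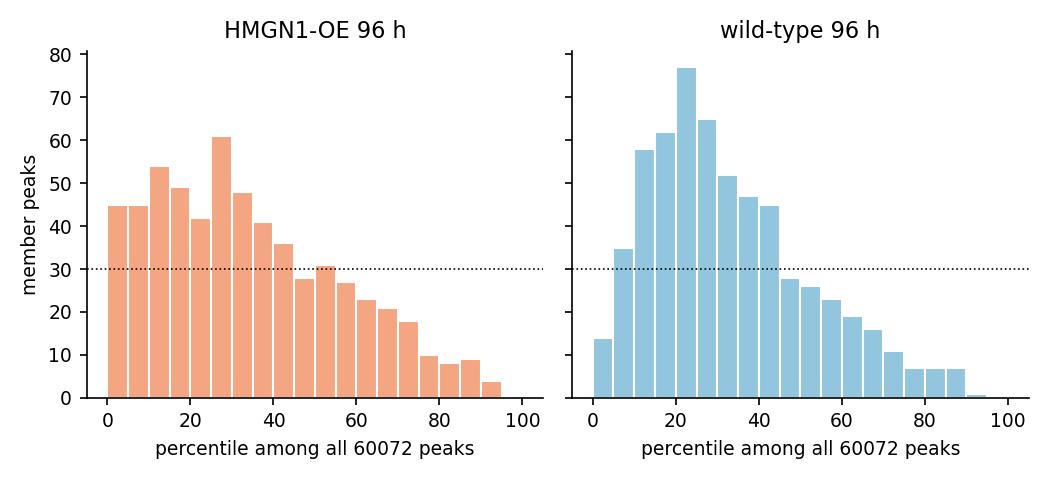
Number of members by their rank at 96 h among all 60072 peaks, in bins of 5 percentiles, for HMGN1-OE (left) and wild-type cells (right). The dotted line marks 30 members, the count per bin of an even spread. In both genotypes most members rank below the middle, with a tail up to the 93.6th percentile in HMGN1-OE and the 91.9th in wild-type cells.

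The member with the highest level at 0 h, chr10:81063411-81063949 (mm9, as are all positions here), stayed among the open peaks of the series. It had 24.1, 25.2 and 22.9 scaled RPKM in HMGN1-OE libraries at 96 h, against 52.0, 51.5 and 41.2 at 0 h. Wild-type libraries had 19.0, 21.8 and 24.1 at 96 h, against 101.1, 95 and 70.5 at 0 h. Its fall in wild-type cells was 4.85-fold in medians and 2.15-fold in HMGN1-OE cells, and the HMGN1-OE libraries at 0 h all lay below the wild-type ones. The difference at 0 h was -0.86 ± 0.12 on the log2 scale (SE, limma adjusted p = 2.94e-05). The peak was picked for its wild-type level at 0 h, which favours this direction. Of the 3302 tested peaks with 10 medians or more in wild-type cells at 0 h, 72.6% were called lower in HMGN1-OE.

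Another 2 peaks that were high in wild-type progenitors ended lower. The peak chr7:51518213-51519042 had 7.28, 6.49 and 5.92 scaled RPKM in HMGN1-OE libraries at 96 h and 68.5, 61.3 and 60.7 at 0 h. In wild-type libraries it had 6.36, 6.36 and 6.41 at 96 h and 72.6, 77.4 and 65.3 at 0 h. Its fold in medians was 10.4 in HMGN1-OE and 13.3 in wild-type cells, and the genotypes overlapped at both times. It still ranked at the 69.4th percentile of all peaks in HMGN1-OE and the 67.0th in wild-type cells at 96 h. At chr6:49641896-49642533 the HMGN1-OE libraries had 2.68, 2.65 and 2.27 scaled RPKM at 96 h and 41.6, 35.8 and 35.5 at 0 h. The wild-type libraries had 2.6, 2.9 and 2.5 at 96 h and 60.2, 59.9 and 50.1 at 0 h. Here the genotypes overlapped at 96 h but not at 0 h, where the difference was -0.58 ± 0.10 on the log2 scale (SE, limma adjusted p = 0.000488). Both peaks were also picked by their wild-type levels at 0 h, so the same limit holds for them.

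The steepest closures ended close to the counting floor. Over the set, the fold between 0 h and 96 h in medians was 4.90 in HMGN1-OE cells (median, range 0.116 to 57.7) and 5.82 in wild-type cells (4.01 to 52.2), and 70 members had a fold of 10 or more in both genotypes. The largest wild-type fold belonged to chr15:7413864-7414460. It held 1, 5 and 4 reads in HMGN1-OE libraries at 96 h against 240, 174 and 228 at 0 h. In wild-type libraries it held 5, 3 and 6 reads at 96 h against 216, 225 and 306 at 0 h. The largest HMGN1-OE fold was at chr5:150069326-150069943, with 10, 9 and 14 reads in HMGN1-OE libraries at 96 h against 709, 652 and 838 at 0 h. Wild-type libraries held 10, 12 and 9 reads there at 96 h against 369, 348 and 429 at 0 h. Both peaks were thus shut alike at 96 h, and the second had been more open in HMGN1-OE progenitors, by 0.92 ± 0.14 on the log2 scale (SE, limma adjusted p = 8.66e-05).

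In HMGN1-OE cells, 579 of the 600 members fell between 0 h and 96 h, against 27.5% of all tested peaks. Another 2 rose, against 31.8% of all tested peaks, and 19 were not called. The HMGN1-OE libraries at 96 h took part in the choice only through their upper limit, but that limit favours low values at 96 h, so the count describes the set. Of the other closing peaks, 786 of 805 fell in HMGN1-OE cells too. In wild-type cells all 600 members fell (30.9% of all tested peaks did), in a contrast that the choice used. The median log2 fold change from 0 h to 96 h was -1.81 in HMGN1-OE and -1.92 in wild-type cells for the members, against -0.01 and -0.01 for all tested peaks. Across the 600 members the changes in the 2 genotypes correlated with Pearson r = 0.62 and Spearman rho = 0.58, given as a description because peaks are not replicates and the choice bounded 3 of the 4 groups. All 579 falls were called under each of the 4 scalings tried. With the deposited scaling, under which the median of all peaks moved by -0.53 in HMGN1-OE and 0.21 in wild-type cells, the member medians were -2.31 and -1.72.

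The fold in HMGN1-OE cells reached 4, the minimum set for wild-type cells, in 373 members (62.2%), and 334 (55.7%) also had 2 medians or more at 0 h. These 334 met the wild-type conditions in the other genotype as well. At the other end, 43 members had a fold under 2 in HMGN1-OE cells, and 4 had less signal at 0 h than at 96 h. In 166 members the HMGN1-OE fold exceeded the wild-type fold. All these folds are in medians, and which genotype fell more turned with the scaling. Under median scaling the median log2 change of members was -1.89 in HMGN1-OE and -2.11 in wild-type cells. With RPKM as deposited it was -2.31 and -1.72.

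**Figure D3:**
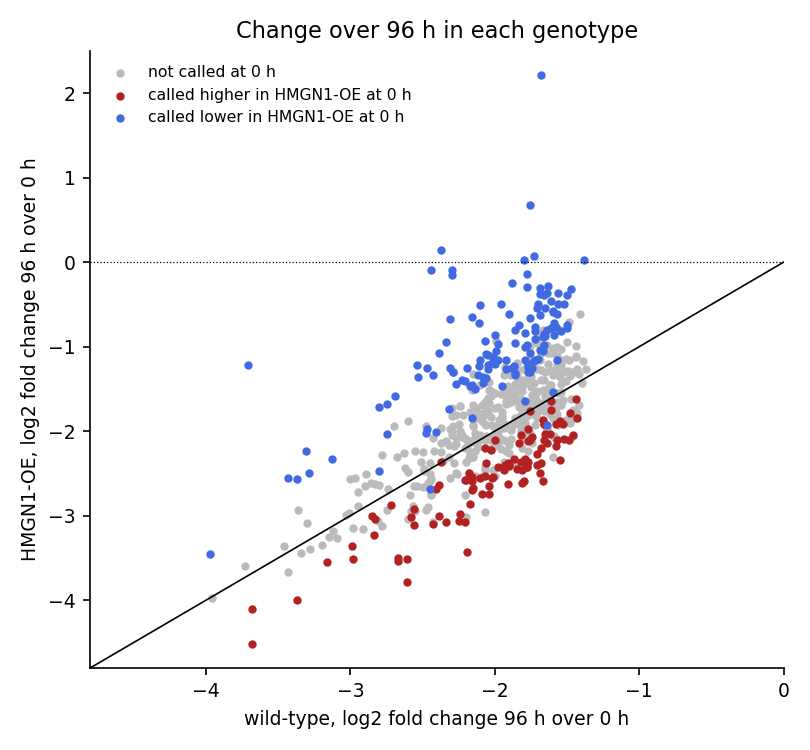
Log2 fold change from 0 h to 96 h of the 600 members, in HMGN1-OE cells (vertical) against wild-type cells (horizontal). Colours give the limma call between the genotypes at 0 h, the solid line is equality and the dotted line no change in HMGN1-OE cells. The position of the colours about the line is bound by the call, which uses the level at 0 h, and by the limit of the choice at 96 h. The highest point, at 2.21, is a peak that rose in HMGN1-OE cells.

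The starting level at 0 h is where the genotypes could be compared on libraries that the choice left out on the HMGN1-OE side. At 0 h, 97 members were higher in HMGN1-OE than in wild-type progenitors, against 8.73% of all tested peaks, and 133 were lower, against 14.4%. The other 370 were not called. Both shares among the members, 16.2% and 22.2%, were above those over all peaks. They differed in another way from the 17334 tested peaks that had 2 medians or more in wild-type cells at 0 h, of which 6.93% were higher and 32.4% lower. The median difference was -0.02 for members, -0.15 for those 17334 peaks and 0.15 for the other closing peaks, of which 22.0% were higher and 7.95% lower. Wild-type libraries at 0 h had to be high for a peak to enter any of these sets, and that condition favours lower HMGN1-OE values. Members and the other closing peaks were parted by the HMGN1-OE level at 96 h against wild-type. Across members that difference correlated with the one at 0 h, with Pearson r = 0.48 and Spearman rho = 0.26. The limit thus favours lower HMGN1-OE values at 0 h in members, and nothing is read from the gap between these sets.

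With deposited RPKM, under which the median of all peaks moved by 0.20 between the genotypes at 0 h, 143 members were called higher and 59 lower, with a member median of 0.27. Under all 4 scalings, 76 of the 97 were higher and 59 of the 133 were lower. The balance of higher and lower calls, and the sign of the median difference, thus depended on the scaling. Each of these 2 groups still held peaks whose call did not. The 3 and 3 libraries did not overlap for 171 members that were higher in HMGN1-OE (16.5% of all tested peaks) and 185 that were lower (21.8%).

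**Figure D4:**
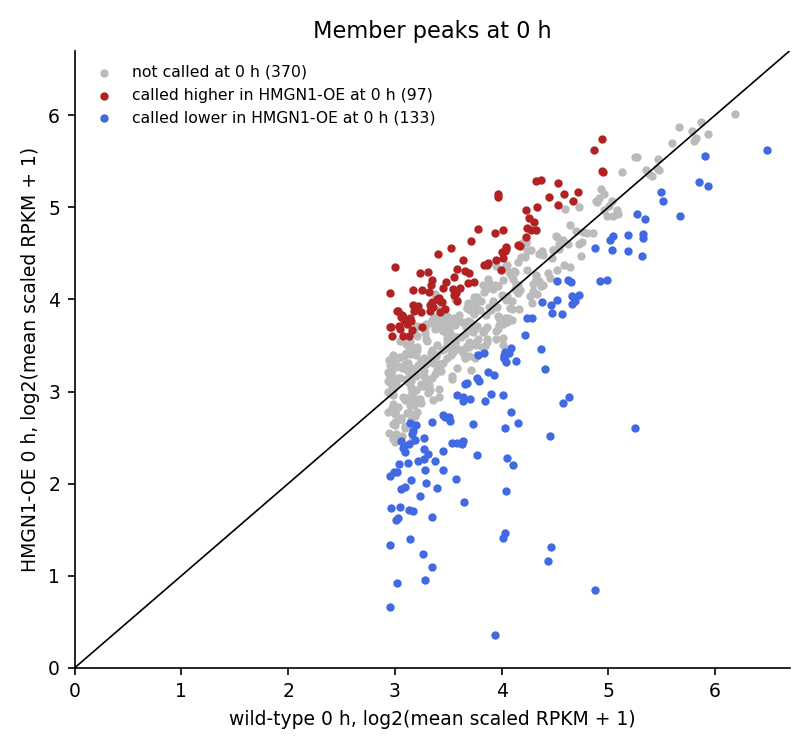
Mean scaled RPKM of each member at 0 h, as log2(value + 1), in HMGN1-OE (vertical) against wild-type progenitors (horizontal), with the line of equality. Red points are the 97 members called higher and blue points the 133 called lower in HMGN1-OE, which became 143 and 59 with RPKM as deposited. The blue points reach far below the line, down to 0.0178 of the wild-type level in medians, while the red points stay within 2.56 times of it.

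Ratios far from equal were more frequent among members than among all peaks of this height, and in the upward direction also among the other closing peaks. The HMGN1-OE level at 0 h was within 1.5 times the wild-type level either way, in medians, for 417 members (69.5%), against 79.9% of the other closing peaks and 84.3% of the 17334 peaks with 2 medians or more. It was over 1.5 times as high for 7.83% of members, against 11.4% of the other closing peaks and 1.91% of the 17334. It was under 0.25 times as high for 3.33% of members, against 0.373% and 0.617%. The limit on HMGN1-OE at 96 h parts members from the other closing peaks in this direction, so nothing is read from that gap. Members narrower than 400 bp were called lower in 26.8% and higher in 5.23% of 153 cases. The shares were 8.19% and 17.5% for other closing peaks of that width, and 15.8% and 8.02% for those of the 17334. Members of 600 to 800 bp were called lower in 20.4% and higher in 23.8% of 147 cases. Here the shares were 5.69% and 23.6% for other closing peaks, and 35.0% and 7.58% for those of the 17334. The share called higher at this width was thus close to that of the other closing peaks. Of the 32 members with 10 medians or more in wild-type progenitors, 46.9% were lower in HMGN1-OE and 0 were called higher. At that height the shares were 33.3% and 5.56% of 36 other closing peaks, and 72.6% and 0.545% of the 3302 tested peaks. The height is defined by the wild-type values compared. The fold in wild-type cells made less difference, with 23.7% lower among folds of 4 to 5 and 19.2% lower among folds of 10 or more.

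The 97 members that were higher in HMGN1-OE progenitors all fell in that genotype. Their median scaled RPKM was 2.27 in HMGN1-OE cells at 96 h and 17.5 at 0 h, and 1.93 in wild-type cells at 96 h and 10.8 at 0 h. The fold in medians was 7.90 in HMGN1-OE and 6.24 in wild-type cells (median of the 97). For 28 of them the interaction of genotype and time was called below 0, that is, the fall was larger in HMGN1-OE cells (6.22% of all tested peaks were called so). Grouping by the level at 0 h and the limit on HMGN1-OE at 96 h favour this direction, so nothing is read from the count.

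The member with the largest excess in HMGN1-OE progenitors was chr16:36587981-36588566. It had 1.22, 0.27 and 1.38 scaled RPKM in HMGN1-OE libraries at 96 h and 22.1, 18.1 and 17.9 at 0 h. Wild-type libraries had 1.02, 0.67 and 0.58 at 96 h and 7.04, 7.90 and 6.13 at 0 h. The groups did not overlap at 0 h and were all near the floor at 96 h. The difference at 0 h was 1.34 ± 0.21 on the log2 scale (SE, limma adjusted p = 0.000119).

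A similar pattern at a higher level was found at chr11:101814038-101814765. HMGN1-OE libraries had 1.58, 2.43 and 2.38 scaled RPKM at 96 h and 35.8, 34.8 and 32.5 at 0 h. Wild-type libraries had 1.5, 1.03 and 2.26 at 96 h and 15.3, 13.2 and 15.3 at 0 h. All 3 HMGN1-OE libraries thus had more than 2 times the highest wild-type value at 0 h, a difference of 1.18 ± 0.16 on the log2 scale (SE, limma adjusted p = 2.46e-05).

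The peak chr10:80414551-80415091 followed the same course. HMGN1-OE libraries had 1.62, 1.45 and 1.41 scaled RPKM at 96 h and 35.0, 32.9 and 32.8 at 0 h. Wild-type libraries had 1.56, 2.11 and 1.07 at 96 h and 15.6, 16.1 and 12.3 at 0 h. The fold in medians was 24 in HMGN1-OE and 11 in wild-type cells. The next in order, chr12:85374376-85375627 and chr2:28454581-28455408, differed at 0 h by 1.12 ± 0.18 and 1.08 ± 0.19 (SE).

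The 133 members that were lower in HMGN1-OE progenitors were more varied. Their median scaled RPKM was 2.14 in HMGN1-OE cells at 96 h and 5.4 at 0 h, and 2.45 in wild-type cells at 96 h and 13.2 at 0 h. In HMGN1-OE cells 112 of them fell, 2 rose and the rest were not called. The fold in medians was 2.64 in HMGN1-OE and 5.60 in wild-type cells (median of the 133). For 99 of them the interaction was called above 0, the smaller fall being in HMGN1-OE cells (10.8% of all tested peaks were called so). As for the 97, the grouping by the level at 0 h and the choice favour this direction, and nothing is read from the count.

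The 21 members not called lower at 96 h in HMGN1-OE cells, 19 without a call and 2 that rose, all belonged to this group. Of these, 20 had less than 1 median in HMGN1-OE progenitors. Their median scaled RPKM was 1.44 in HMGN1-OE cells at 96 h and 1.64 at 0 h, and 1.84 in wild-type cells at 96 h and 8.60 at 0 h. In 15 of the 21 the HMGN1-OE libraries of both times overlapped, and in 4 without a call every library at 96 h lay below those at 0 h. They were narrow, with a median width of 396 bp, against 554 bp for all members. For these peaks closing in HMGN1-OE cells was not shown by the test.

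The 2 members that rose in HMGN1-OE cells were also the ones lowest against wild-type at 0 h. The peak chr16:49952051-49952654 had 7.83, 5.47 and 8.40 scaled RPKM in HMGN1-OE libraries at 96 h and 0.47, 0.58 and 1.31 at 0 h, from 9, 10 and 26 reads. In wild-type libraries it had 7.06, 8.55 and 8.89 at 96 h and 27.4, 29.5 and 27.8 at 0 h. The genotypes overlapped at 96 h, a level that HMGN1-OE cells reached from below and wild-type cells from above, with a change of 2.21 ± 0.17 on the log2 scale in HMGN1-OE cells (SE, limma adjusted p = 1.08e-09). At 0 h the difference was -4.06 ± 0.17 (SE, limma adjusted p = 4.42e-12), the most negative of all members.

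At chr14:38629764-38630320 the HMGN1-OE libraries had 1.14, 1.06 and 0.87 scaled RPKM at 96 h and 0, 0.5 and 0.33 at 0 h. The library at 0 had no read there, which allows a level of up to 0.17 scaled RPKM at 3 reads, for counting error only. Wild-type libraries had 4.01, 4.60 and 2.26 at 96 h and 13.3, 13.9 and 15.9 at 0 h. HMGN1-OE was below every wild-type library at both times. Its rise in HMGN1-OE cells, 0.68 ± 0.21 on the log2 scale (SE, limma adjusted p = 0.01), came from 16, 15 and 12 reads at 96 h against 0, 8 and 6 at 0 h. The number of members called higher at 96 h was 1 in place of 2 with deposited RPKM and when HMGN1-OE 0 h replicate 1 was left out.

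At a further 2 peaks of this group the HMGN1-OE libraries were below 2 scaled RPKM at both times. At chr13:55268334-55268937 the HMGN1-OE libraries had 1.18, 1.89 and 1.73 scaled RPKM at 96 h and 1.05, 1.74 and 1.66 at 0 h. Wild-type libraries had 5.38, 5.68 and 5.85 at 96 h and 22.3, 20.8 and 20 at 0 h. The genotypes were apart at both times, by -1.36 ± 0.16 at 96 h and -3.16 ± 0.16 at 0 h on the log2 scale (SE).

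The peak chr4:151735050-151735348 had 1.06, 1.05 and 1.62 scaled RPKM in HMGN1-OE libraries at 96 h and 1.06, 0.82 and 1.83 at 0 h. In wild-type libraries it had 3.48, 5.01 and 7.77 at 96 h and 23.0, 20.3 and 18.4 at 0 h. Its HMGN1-OE values overlapped fully between the times. In contrast to both, chr10:80612851-80613456 closed to one level in both genotypes, with 1.64, 1.04 and 2.13 scaled RPKM in HMGN1-OE libraries at 96 h and 6.69, 3.75 and 4.82 at 0 h. Wild-type libraries had 1.72, 2.15 and 1.76 at 96 h and 39.6, 41.9 and 29.4 at 0 h. The fall was called in both genotypes, and in medians it was 3.42-fold in HMGN1-OE and 23.4-fold in wild-type cells.

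At 96 h the limit set by the choice left little room for higher levels in HMGN1-OE cells, but set no lower bound. The HMGN1-OE level was 1.16 times the wild-type level in medians over the members (median, range 0.233 to 1.499), and 156 members had the same or less in HMGN1-OE. The fit called 40 members higher in HMGN1-OE, against 10.6% of all tested peaks, and 23 lower, against 11.4%, and nothing is read from these counts because the choice used this contrast. Without wild-type 96 h replicate 1 the count of higher members was 24, and with deposited RPKM it was 0, with 123 lower. In the interaction of genotype and time, 114 members (19.0%) were called above 0 and 32 (5.33%) below, against 10.8% and 6.22% of all tested peaks and 24.2% and 6.76% of the 17334 peaks with 2 medians or more. With deposited RPKM these were 19 and 227, and without HMGN1-OE 0 h replicate 3 the count below 0 was 20. Across members the levels at 96 h correlated between the genotypes with Pearson r = 0.93 and those at 0 h with r = 0.68, as a description.

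Values lay close to each threshold on both sides. The lowest wild-type levels at 0 h inside were 2.002, 2.006 and 2.008 medians, and the highest outside, for peaks that met the other conditions, were 1.999, 1.991 and 1.990. The smallest wild-type folds inside were 4.011, 4.012 and 4.013, and the largest outside were 3.987, 3.987 and 3.978. For the HMGN1-OE limit, the ratios were 1.4989, 1.4985 and 1.4984 inside and 1.5005, 1.5026 and 1.5031 outside. In a list of this size the nearest values lie close to any threshold, so they do not show whether the spread has a step there.

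The choice set no condition on width or position, although RPKM divides reads by width. In both, members resembled the other closing peaks, and they were narrower than other open peaks. The median width was 554 bp for members, 564 bp for the other closing peaks and 709 bp for the 17334 peaks with 2 medians or more, against 445 bp for all tested peaks. Only 6.0% of members were 1000 bp or wider, against 17.9% of the 17334. They lay on all autosomes and on chromosome X. The share of tested peaks that were members was highest on chromosome 17, with 42 of 2644 (1.59%), and lowest on chromosome X, with 3 of 1196 (0.251%). Another member lay within 10 kb of 5.0% of members, against 2.14% of the 17334 peaks and 1.48% of all tested peaks. Within 50 kb it was 13.5%, against 8.02% and 6.33%.

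In windows of 200 kb, 498 held 1 member, 39 held 2 and 7 held 3 or more. The window with the most, chr5:105600001-105800000, had 5 members among 14 tested peaks, and the window before it on the chromosome had 3 among 21. Of the 5, the strongest was chr5:105772643-105773305, with 13.9, 12.4 and 10.4 scaled RPKM in HMGN1-OE libraries at 96 h and 48.7, 44.8 and 41.6 at 0 h. Wild-type libraries had 11.5, 12.4 and 12.8 at 96 h and 41.7, 47.0 and 41.0 at 0 h. The genotypes overlapped at both times.

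The window before it held the widest member, chr5:105542523-105545809, of 3287 bp. It held 117, 92 and 149 reads in HMGN1-OE libraries at 96 h against 2528, 2166 and 2600 at 0 h, the highest counts of any member in those 3 libraries at 0 h. Wild-type libraries held 104, 118 and 65 reads at 96 h against 1542, 1632 and 2367 at 0 h. Its fold in medians was 17.7 in HMGN1-OE and 19.8 in wild-type cells.

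A second window, chr7:73200001-73400000, held 4 members among 28 tested peaks. Its peak chr7:73378004-73378694 had 9.26, 9.04 and 8.51 scaled RPKM in HMGN1-OE libraries at 96 h and 53.4, 49.5 and 54.0 at 0 h. Wild-type libraries had 7.61, 10.3 and 6.30 at 96 h and 28.7, 28.5 and 31.8 at 0 h. The genotypes overlapped at 96 h but not at 0 h, where HMGN1-OE was higher by 0.80 ± 0.12 on the log2 scale (SE, limma adjusted p = 5.89e-05). Another member of the same window, chr7:73357470-73358106, had 13.3, 12.1 and 12.7 in HMGN1-OE libraries at 96 h and 55.2, 53.9 and 63.7 at 0 h. Wild-type libraries had 10.7, 10.9 and 12.5 at 96 h and 48.7, 47.6 and 52.4 at 0 h, a difference at 0 h of 0.21 ± 0.08 that was not called.

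Tested peaks outside the closing sets were then grouped by their gap to the nearest member. The 140 peaks within 2 kb changed between 0 h and 96 h by a median of -0.30 on the log2 scale in HMGN1-OE and -0.20 in wild-type cells, and 43.6% and 40% of them fell. For the 250 peaks at 2 to 5 kb the medians were -0.10 and 0.02, and 36.4% and 32.8% fell, so the medians did not move evenly with distance. For the 49969 peaks over 100 kb away the medians were 0.03 and 0.03, and 24.8% and 28.5% fell. Around the other closing peaks the 187 peaks within 2 kb had medians of -0.29 and -0.20, close to those around the members. Peaks near a member were also more open at the start, with a median wild-type level at 0 h of 6.34 scaled RPKM within 2 kb, against 3.28 beyond 100 kb, and the part of that level in the drop was not tested. Leaving the members aside, the median difference between the genotypes at 0 h was 0.07 within 2 kb and -0.03 beyond 100 kb.

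**Figure D5:**
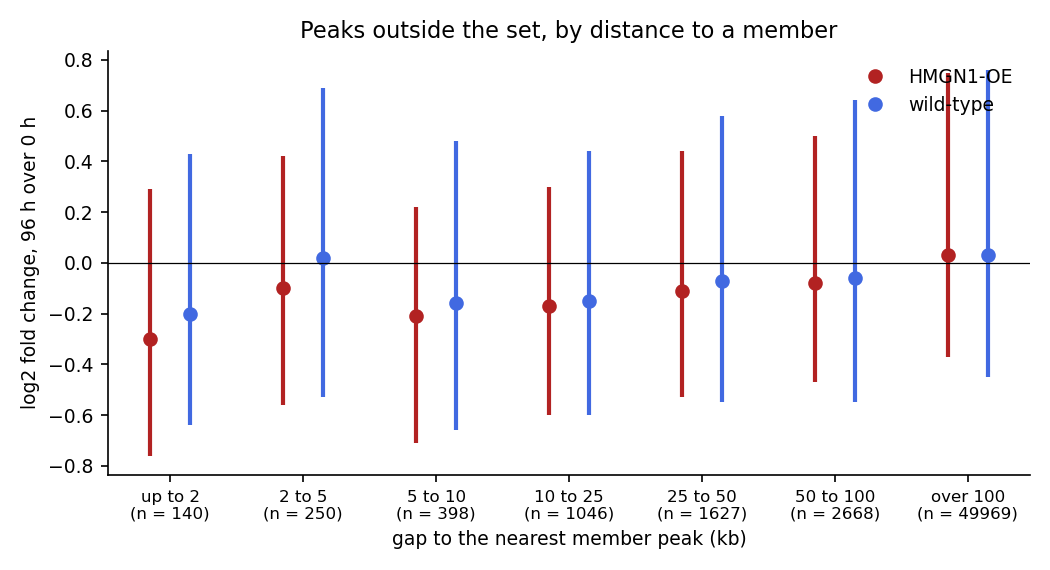
Log2 fold change from 0 h to 96 h of tested peaks outside the closing sets, by gap to the nearest member in kb, in HMGN1-OE (red) and wild-type cells (blue). Points are medians and lines span the 25th to 75th percentile of the peaks. Medians within 2 kb are -0.30 and -0.20, and beyond 100 kb 0.03 in both, while the spans overlap at all distances.

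The libraries are bulk samples, so that fewer open cells and less open chromatin per cell cannot be told apart for any of these peaks.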

How the data were processed

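Nuclei of 12 samples were profiled by Omni-ATAC, and the authors processed reads with the ChiLin pipeline, BWA and MACS. Their processing notes give mm9 as the build. How peaks were merged, how duplicates were handled and whether cut sites were offset was not given in the sources used here. Values deposited by the authors are RPKM for 1 peak list. RPKM multiplied by width gave whole reads, within 0.001 reads, for 100.0% of values in every library, so reads and library totals were recovered. Intervals and floors from reads cover counting error only.

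Groups and replicate numbers came from the sample titles. Peaks with the equivalent of 10 reads in at least 3 libraries were kept, which removed 2569. TMM scaling trimmed 30% of peaks from each end by ratio and 5% from each end by level. One limma 3.58.1 model (R 4.3.3, trend and robust) on log2(scaled RPKM + 1) held all 12 libraries and 4 group means, with Benjamini-Hochberg adjustment over 57503 peaks, two-sided, and was tested on simulated data. Deviations of same-numbered libraries correlated between -0.041 and 0.058, so no effect shared by replicate number was seen. The numbers were not used as pairs in the main model, and the labels do not say whether they mark pairs. Shares of reads were tested by exact permutation over libraries. The members, thresholds and lists were chosen with earlier results of these data known.

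Named peaks were, by a written rule, the first of the highest wild-type levels at 0 h, the largest wild-type falls, the largest differences between genotypes at 0 h in each direction, the members nearest each threshold and those in the windows with most members, at most 1 per 200 kb in a list of extremes. The largest HMGN1-OE fold, the widest member and the members not called lower over time in HMGN1-OE were named after their values were seen. Alternatives were 3 other library scalings (4 with TMM), other pseudocounts, no filter, only the groups compared, a replicate block, leaving out each library, other thresholds and limma-voom on recovered reads, the last added after seeing the data. No mm9 genome or annotation was used here, so genes, cell type markers, motifs and sequences of the peaks were not analysed. Figures were drawn with matplotlib 3.10.9.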

Additional observations from a re-analysis of the deposited data

Results flagged for a closer look

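For the members below, the change between 0 h and 96 h differed between the genotypes by the interaction test of limma. The difference is HMGN1-OE change minus wild-type change on the log2 scale. The choice of members used 3 of the 4 groups in this test, so the values are descriptions. In all, 114 members were called above 0, with the smaller fall in HMGN1-OE cells, and 32 below 0. These are 19.0% and 5.33% of the members, against 10.8% and 6.22% of all tested peaks and 24.2% and 6.76% of the 17334 tested peaks with 2 medians or more in wild-type progenitors. Of the 600, 454 were not called.

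Among the members highest in wild-type progenitors, the interaction was 1.01 at chr10:81063411-81063949, 1.05 at chr3:144043956-144044972 and 0.64 at chr15:103135354-103136117. Among the largest wild-type falls it was 0.52 at chr6:49641896-49642533, 2.49 at chr10:80612851-80613456 and -0.84 at chr5:150069326-150069943.

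Among the members listed here, those low in HMGN1-OE progenitors had the largest positive values. The interaction equals the genotype difference at 96 h minus that at 0 h. Grouping by the level at 0 h therefore favours this sign, and nothing is read from it. The interaction was 3.89 at chr16:49952051-49952654 and 2.45 at chr14:38629764-38630320, which rose in HMGN1-OE cells. It was 1.82 at chr4:151735050-151735348, 1.80 at chr13:55268334-55268937, 2.51 at chr12:108389352-108389573 and 1.41 at chr4:86804031-86804295, where HMGN1-OE cells had no call over time. At the last of these the HMGN1-OE libraries had 2.70, 2.37 and 1.98 scaled RPKM at 96 h and 1.79, 3.57 and 1.72 at 0 h, while wild-type libraries had 1.59, 2.08 and 2.74 at 96 h and 8.74, 8.13 and 4.93 at 0 h.

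The listed members that were high in HMGN1-OE progenitors had negative values, which grouping by the level at 0 h favours in the same way. The interaction was -1.23 at chr16:36587981-36588566, -0.89 at chr11:101814038-101814765 and -1.18 at chr10:80414551-80415091. It was -0.79 at chr12:85374376-85375627, -0.87 at chr2:28454581-28455408 and -0.65 at chr7:73378004-73378694.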

How the results depend on the processing

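The 600 falls in wild-type cells stayed 600 under all settings run, and the falls in HMGN1-OE cells stayed between 573 and 590. With RPKM as deposited, HMGN1-OE against wild-type at 0 h gave 59 members lower and 143 higher, HMGN1-OE over time 1 higher, HMGN1-OE against wild-type at 96 h 123 lower and 0 higher, and the interaction 227 below and 19 above 0. Under that scaling the interaction at chr4:86804031-86804295 was 0.78 and no longer called (limma adjusted p = 0.0557). With limma-voom 147 members were higher at 0 h and 21 had an interaction below 0, which was 17 with median scaling and 50 with a pseudocount of 2. A fit of only the groups compared gave 14 lower and 12 higher at 96 h. The cause was not tested.

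Leaving out 1 library at a time gave 70 to 105 members higher and 101 to 136 lower at 0 h, 1 to 2 higher in HMGN1-OE over time, 24 to 48 higher and 17 to 25 lower at 96 h, and 79 to 112 interactions above and 20 to 38 below 0. With a replicate block 129 members were lower and 96 higher at 0 h, and no count moved by over 1.5 times.

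Other thresholds gave 354 peaks at a wild-type level of 3 medians, 1087 and 287 at folds of 3 and 6, and 324 and 1030 at HMGN1-OE limits of 1.2 and 2. Other scalings kept 64.2% (TMM) and 42.2% (as deposited) of members. Leaving out a library gave 567 to 664 members and kept 79.7% (without wild-type 96 h replicate 3), 81.3% (replicate 2) or more of the 600. edgeR and DESeq2, of which the paper used DESeq2, were not run. The deposited unit is RPKM, though reads were recovered, and limma-voom on those reads was used in their place. Members had a median of 24 to 44 reads per library at 96 h, which limits what can be called there.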
